A study of Mus musculus with 24 samples.

Results

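Thyroid hormone acts through the nuclear receptors TRα and TRβ, encoded by Thra and Thrb, which sit on DNA as dimers with a retinoid X receptor (RXR) and exchange corepressors for coactivators when the hormone T3 binds. The genes of this machinery were followed in mouse liver: the receptors Thra and Thrb, the RXR genes Rxra and Rxrb, the corepressor Ncor1 with its histone deacetylase Hdac3, the p160 coactivators Ncoa1 and Ncoa2, and Med1, the Mediator subunit that nuclear receptors contact. A probe set was taken as a member when the array's annotation gave one of these 9 symbols and no other, and each probe set was kept apart. For 8 of the 9 genes there were 23 such probe sets, out of 34958 probe sets with 1 symbol for 18194 genes; Ncor1 had none in the annotation used and was not analysed here. Of the 23 probe sets, 20 reached the level needed for testing, which is the 40th percentile of an array (5.33 to 5.45 on the log2 scale) in at least 3 arrays. The other 3, Rxra 1430497_at, Ncoa1 1443397_at and Med1 1439408_a_at, reached it in 0 arrays, with means over all arrays of 4.63, 4.13 and 3.67. Med1 1453972_x_at reached it in 7 arrays, and each of the remaining 19 in all 24.

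Liver is a tissue where TRβ is the main thyroid hormone receptor and hepatocytes carry most of the hormone response. Without hormone, TR and RXR on a response element recruit NCoR1, which carries and activates HDAC3, and the target gene is held low. With hormone, the p160 coactivators and then Mediator replace this complex. RXR also pairs with other receptors, among them those for fatty acids, bile acids and xenobiotics, so a change in RXR or its partners touches several pathways.

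The 24 arrays held liver RNA of 24 male mice in 8 groups of 3: 4 genotypes, each given T3 or PBS. WT mice, KO mice without TRβ, and GS mice, with the substitutions E125G and G126S in the TRβ DNA-binding domain, were on a C57BL/6J background and aged 8 to 9 weeks. All of them, controls included, were made hypothyroid for 3 weeks by a low-iodine diet and drinking water with 0.02% methimazole, 0.5% perchlorate and 0.3% saccharin. Treated animals then received 20 µg T3 per 100 g body weight into the peritoneum, and livers were taken at 6 h. Y147F mice, whose TRβ has the tyrosine-to-phenylalanine change Y147F, were C57BL/6JCrl, aged 10 to 11 weeks, and belong to a later submission. They received 0.05% methimazole and 1% perchlorate for 3 weeks and 200 ng T3 per g, also for 6 h, so genotype, substrain and submission cannot be told apart where Y147F is set against WT. The labels do not say how the KO allele was made or which exons it lacks. No WT arrays of the later submission were analysed here. Title numbers all differ, so every array was treated as 1 animal. The p-values set a difference between groups against the spread of arrays within groups.

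Array medians lay between 5.88 and 6.00. The mean correlation of an array with its own group, over the tested probe sets without missing values, ran from 0.9918 to 0.9953. The lowest value belonged to Y147F PBS replicate 3, which is given apart below for several of the results it touches. Hepatocyte markers were uniformly high, at a mean of 14.43 to 14.59 per array for 5 of 6 listed genes, and T and B cell markers were at 5.68 to 5.94, near the array medians. The hormone had acted: in limma, Dio1, the deiodinase that is the standard hepatic T3 read-out, rose by 6.63 ± 0.28 in WT, 1.82 ± 0.28 in KO, 2.52 ± 0.28 in GS and 7.52 ± 0.28 in Y147F. In bulk tissue, fewer cells of a type and less RNA per cell cannot be told apart. All values are log2 intensities; differences are log2 differences ± SE from 1 linear model, with 95% intervals, and their precision is limited by 3 arrays per group.

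For Rxra and Rxrb 1 promoter window each is shown, because T3 raised Rxrb and 1 Rxra probe set differed by genotype, as described below. Each run is the 250 bases before a transcription start in RefSeq, build GRCm38.p6, plus strand, 5′ to 3′. Capitals mark the hexamer AGGTCA on either strand, which is the core of most thyroid hormone and retinoid response elements. The Rxrb gene lies at chr17:34031812-34038403 and its first window at chr17:34031562-34031811. The Rxra gene lies at chr2:27676445-27763319 and the window of its second listed start, inside the gene, at chr2:27709042-27709291.
Rxrb start 1: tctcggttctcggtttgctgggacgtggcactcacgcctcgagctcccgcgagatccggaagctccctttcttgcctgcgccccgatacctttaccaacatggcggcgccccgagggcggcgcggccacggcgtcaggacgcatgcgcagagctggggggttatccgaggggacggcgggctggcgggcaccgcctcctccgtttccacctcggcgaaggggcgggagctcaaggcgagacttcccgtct
Rxra start 2: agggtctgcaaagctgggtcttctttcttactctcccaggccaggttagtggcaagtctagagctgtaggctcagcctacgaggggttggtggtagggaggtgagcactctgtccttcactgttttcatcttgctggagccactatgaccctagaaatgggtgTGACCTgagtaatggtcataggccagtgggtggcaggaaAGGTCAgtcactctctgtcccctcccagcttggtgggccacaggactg
The printed Rxra window held 2 matches, 87 and 48 bases before the start and on opposite strands, and the Rxrb window held 0. The first listed Rxra window, chr2:27676951-27677200 and also inside the gene, held 0 matches and is not printed. The Rxra window shown is thus the one with matches. The table had 10 windows for 6 of the 9 genes. Among them only the second Rxra window and the first Thrb window, with 1 match 184 bases before the start, held the hexamer, against 4607 of all 32851 windows of the table (14%). A direct repeat of the hexamer with a gap of 4 bases, the classical arrangement for TR with RXR, was in 5 of all windows (0.0152%) and in none of these 10. A match of letters is a description of the window and not a measured binding site.

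The receptor genes themselves moved little with T3. Thra lies at chr11:98740776-98769006 and was read by 3 probe sets, of which 1443952_at was the brightest. In WT its PBS arrays read 8.50, 8.54 and 8.36 and its T3 arrays 8.24, 8.06 and 8.15. In Y147F the PBS arrays read 8.49, 8.52 and 8.86 and the T3 arrays 8.21, 8.07 and 8.33. In both genotypes every T3 array lay under every PBS array. In KO the PBS arrays read 8.60, 8.33 and 8.23 against 7.91, 8.33 and 8.08 with T3, and in GS 8.43, 8.28 and 8.58 against 8.17, 8.32 and 8.23, so that treated and control arrays overlapped in these genotypes. The T3 effect averaged over the 4 genotypes was -0.30 ± 0.06 (interval -0.42 to -0.18, limma with Benjamini-Hochberg adjustment, adjusted p = 0.00119), and it stayed called when any 1 of the 24 arrays was left out (-0.33 to -0.27). Thra by this probe set therefore fell with T3, by about 1.23-fold.

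Within single genotypes only Y147F passed the test for Thra 1443952_at, at -0.42 ± 0.12 (adjusted p = 0.0267). Without Y147F PBS replicate 3 the value was -0.30 (adjusted p = 0.145), and it was also lost without T3 replicate 1 (0.0711) or T3 replicate 2 (0.117), with only the Y147F arrays in the fit (0.101) and with a covariate for the title number (0.0875). The WT value was -0.32 ± 0.12 (0.107), the KO value -0.28 ± 0.12 (0.474) and the GS value -0.18 ± 0.12 (0.894). The genotypes were not shown to differ: the response in KO and GS minus that in WT and Y147F was 0.14 ± 0.12 (interval -0.11 to 0.38). The other probe sets, 1426997_at and 1454675_at, had averaged T3 differences of -0.15 ± 0.06 (adjusted p = 0.077) and -0.11 ± 0.05 (0.171), of the same sign and not called. Without Y147F PBS replicate 3 the averaged difference of 1426997_at was -0.11 ± 0.05 (limma, adjusted p = 0.115). Its difference within Y147F was then -0.08 ± 0.10 instead of -0.26 ± 0.12. Over the 24 arrays 1443952_at correlated with them at r = 0.86 and 0.58, and they with each other at 0.68, a description that includes the T3 difference. The 3′ end of Thra overlaps Nr1d1, a clock gene on the opposite strand at chr11:98767932-98775377, by 1075 bases. Nr1d1 itself, looked up after the Thra values were seen, showed an averaged T3 difference of 0.09 ± 0.13 (adjusted p = 0.701). The tested probe sets of other genes most like Thra 1443952_at over the 24 arrays were Cdk19 (Pearson r = 0.89), Gab1 (0.87) and Sox12 (0.87).

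Thrb, at chr14:17659225-18040097, was read by 1 probe set, 1422202_at, at a modest level between percentiles 54.4 and 67.1 of the arrays. Ordered by mean, it read 6.99 ± 0.23 (SD, n = 3) in KO with PBS, 6.96 ± 0.03 in GS with PBS, 6.96 ± 0.15 in KO with T3, 6.86 ± 0.08 in GS with T3, 6.80 ± 0.19 in WT with PBS, 6.71 ± 0.47 in Y147F with PBS, 6.66 ± 0.25 in WT with T3 and 6.54 ± 0.17 in Y147F with T3. Arrays of neighbouring groups in this order overlapped throughout. The KO was thus not low by this probe set: PBS arrays read 7.25, 6.82 and 6.89 in KO and 6.64, 7.01 and 6.75 in WT, a difference of 0.19 ± 0.17 (interval -0.17 to 0.55, adjusted p = 0.624). Probe coordinates were not used here, so whether the probes lie in the deleted part was not tested, and the probe set does not check the KO label. T3 differences ran from -0.17 in Y147F to -0.03 in KO, with intervals between -0.53 and 0.33, and none was called. Y147F PBS replicate 3, at 6.17, was the lowest of the 24 arrays; without it the Y147F difference was -0.44 ± 0.14 (adjusted p = 0.0618), more than 1.5 times larger and still not called. Most like Thrb over the 24 arrays were Ifi203 (r = 0.82), Rbx1 (0.81) and Psapl1 (0.80).

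**Figure D1:**
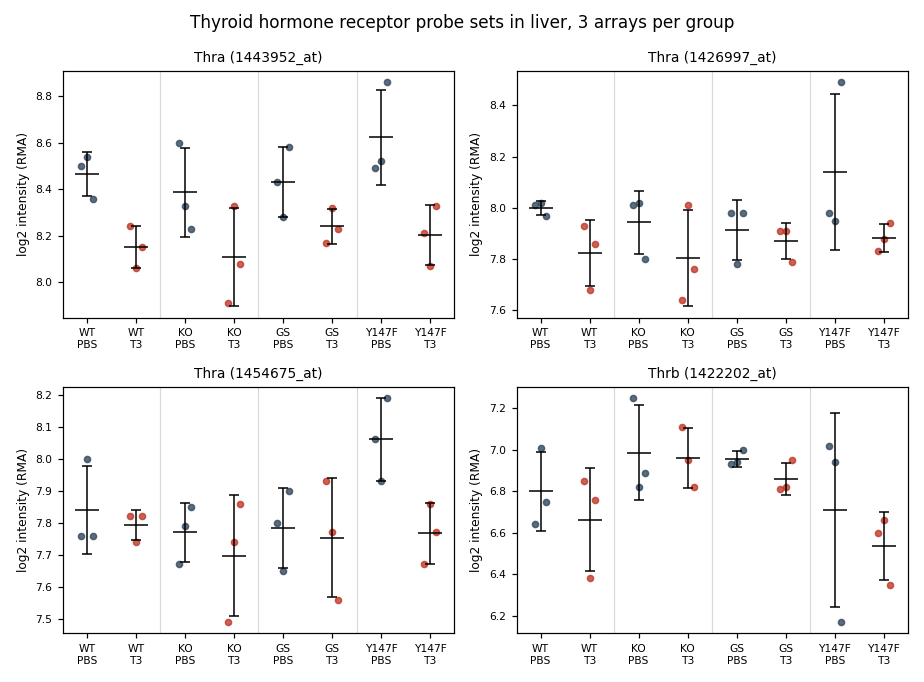
Log2 intensity (vertical axis) of the 3 Thra probe sets and the Thrb probe set in the 8 groups (horizontal axis). Dots are arrays (red T3, blue-grey PBS), bars the mean ± SD of 3 arrays. Thra 1443952_at shows T3 arrays under PBS arrays in WT and Y147F, and Thrb shows overlapping groups, with Y147F PBS replicate 3 at 6.17.

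Rxrb rose with T3 in WT and Y147F. RXRβ is the broadly expressed RXR, and its gene was read by 1416990_at. In WT the PBS arrays read 9.56, 9.78 and 9.70 and the T3 arrays 9.99, 10.12 and 10.05. In Y147F they read 9.79, 9.71 and 9.93 with PBS and 10.13, 10.02 and 10.37 with T3. In KO they read 9.78, 9.80 and 9.89 against 10.00, 9.93 and 9.99, and in GS 9.85, 9.86 and 9.87 against 9.98, 9.99 and 9.97. Every T3 array lay above every PBS array in each of the 4 genotypes. Rxrb rose by 0.37 ± 0.08 in WT (interval 0.20 to 0.54, 1.29-fold, adjusted p = 0.00393) and by 0.37 ± 0.08 in Y147F (adjusted p = 0.00452), and it was called in each fit that left out 1 of the arrays compared. With only the 6 Y147F arrays in the fit the adjusted p for that genotype was 0.119. The differences in KO, 0.15 ± 0.08 (interval -0.02 to 0.32, adjusted p = 0.591), and in GS, 0.12 ± 0.08 (interval -0.05 to 0.29, adjusted p = 0.91), were not called. Averaged over genotypes the rise was 0.25 ± 0.04 (adjusted p = 0.000126).

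Whether this rise was smaller in KO and GS was tested directly. The response in KO and GS minus that in WT and Y147F was -0.23 ± 0.08 (interval -0.40 to -0.07, unadjusted p = 0.00831), and the adjusted p of 0.0991 did not pass; without Y147F T3 replicate 2 it did. This contrast was added after the data had been seen. A smaller response in mice without a DNA-binding TRβ is thus not shown for Rxrb. Sinusoidal endothelial markers moved over the same arrays: 3 of 7 (Clec4g, Kdr, Fcgr2b) were lower with T3 in the averaged comparison, with a median of -0.22 over the 7. Their mean level ran from 8.96 to 9.55 in T3 arrays and from 9.39 to 9.72 in PBS arrays. In the same comparison 1 of 4 cholangiocyte markers (Epcam, adjusted p = 0.0148) was lower, with mean levels of 6.32 to 6.72 in T3 arrays and 6.46 to 6.95 in PBS arrays. Of the stellate cell markers 1 of 7 (Lrat, limma, adjusted p = 2.34e-06) was higher, while the median over the 7 was -0.11. Their mean levels were 8.58 to 9.46 in T3 arrays and 8.86 to 9.53 in PBS arrays. The part of these markers in the results for Rxrb and Thra was not tested.

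Rxra encodes RXRα, the main RXR of hepatocytes, and stood out by genotype rather than by hormone. Its brightest probe set, 1454773_at, read 11.49, 11.59 and 11.57 in WT with PBS and 11.49, 11.39 and 11.33 in WT with T3. KO read 11.68, 11.71 and 11.73 with PBS and 11.55, 11.72 and 11.69 with T3, and GS 11.81, 11.74 and 11.97 with PBS and 11.73, 11.84 and 11.69 with T3. Each PBS array of KO and GS, and each T3 array of both, lay above all WT arrays of the same treatment. The Y147F T3 arrays, at 11.54, 11.63 and 11.61, also lay above all WT T3 arrays, and that difference was not called. With T3 the higher level was therefore not particular to KO and GS. The Y147F PBS arrays overlapped those of WT. The comparison over both treatments that follows leaves Y147F out. Over both treatments, KO and GS together were higher than WT by 0.26 ± 0.06 (interval 0.14 to 0.38, adjusted p = 0.0051), in a comparison added after seeing the data; all 18 fits that left out 1 array called it (0.24 to 0.28). Among single comparisons only GS with T3 passed, 0.35 ± 0.09 above WT with T3 (adjusted p = 0.033), and 5 of the 6 fits without 1 array lost it, with values from 0.31 to 0.40. KO with T3 was 0.25 ± 0.09 above WT (adjusted p = 0.125), and with PBS GS was 0.29 ± 0.09 (0.132) and KO 0.16 ± 0.09 (0.415) above WT.

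The second tested Rxra probe set, 1425762_a_at, did not share this pattern. Its difference of KO and GS from WT was -0.06 ± 0.04 (interval -0.15 to 0.04, adjusted p = 0.473), and the 2 probe sets correlated at r = 0.23 over the 24 arrays. The genotype difference of Rxra is therefore a result of 1 probe set. T3 differences of the brighter probe set ran from -0.15 in WT to -0.05 in KO, and none was called. Y147F PBS replicate 3, at 11.98, was its highest array; the other PBS arrays of that group read 11.62 and 11.49, and the Y147F T3 arrays 11.54, 11.63 and 11.61. Without that array the Y147F difference was 0.04 ± 0.08 (adjusted p = 0.83) instead of -0.10, a change of sign, and neither was called. Most like Rxra 1454773_at over the 24 arrays were Gaa (r = 0.89), Atp13a1 (0.87) and Foxo4 (0.86). Of the Kupffer cell markers, 2 of 8 (Clec4f, Cd5l) were higher in KO and GS than in WT, with a median of 0.17 over the 8. Their mean level ran from 8.72 to 9.13 in WT arrays and from 8.84 to 9.78 in KO and GS arrays. Of the stellate cell markers 1 of 7 (Lrat, adjusted p = 0.00135) was lower in KO and GS, and the part of these markers in the genotype differences was not tested.

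**Figure D2:**
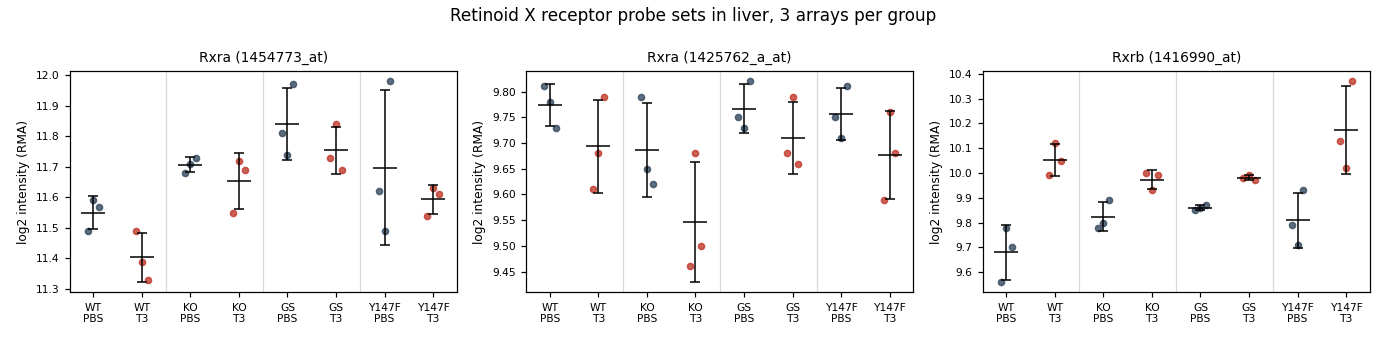
Log2 intensity (vertical axis) of the tested Rxra and Rxrb probe sets in the 8 groups (horizontal axis). Dots are arrays (red T3, blue-grey PBS), bars the mean ± SD of 3 arrays. Rxrb T3 arrays lie above the PBS arrays in every genotype, a difference called in WT and Y147F and not in KO or GS, and over both treatments Rxra 1454773_at is higher in KO and GS than in WT.

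On the corepressor side, Hdac3 was lower in control mice without TRβ. HDAC3 is the deacetylase that works inside the NCoR1 complex. Its probe set 1426437_s_at read 9.63, 9.69 and 9.65 in WT with PBS, 9.40, 9.27 and 9.38 in KO with PBS, and 9.40, 9.45 and 9.46 in GS with PBS. All KO and GS control arrays lay under all WT control arrays. Hdac3 was lower in KO than in WT (-0.31 ± 0.06, interval -0.43 to -0.18, 1.24-fold, adjusted p = 0.00368), and stayed called in 6 of 6 fits without 1 of the arrays compared. With only those 6 arrays in the fit the adjusted p was 0.073. The GS difference, -0.22 ± 0.06 (interval -0.34 to -0.10, adjusted p = 0.0586), was of the same sign and not called. Over both treatments KO and GS were lower than WT (-0.18 ± 0.04, adjusted p = 0.00228), kept in 18 of 18 fits without 1 array. That comparison was added after seeing the data and averages the PBS and T3 groups. With T3 alone Hdac3 was not called between KO and WT or between GS and WT. Y147F with PBS read 9.58, 9.75 and 9.67, a difference from WT of 0.01 ± 0.06 (interval -0.11 to 0.13).

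With T3 the Hdac3 arrays of KO and WT came closer. WT read 9.53, 9.57 and 9.61 with T3, all under its PBS arrays, and KO read 9.50, 9.46 and 9.55, all above its PBS arrays. The T3 difference was -0.09 ± 0.06 in WT (adjusted p = 0.447) and 0.15 ± 0.06 in KO (0.398), neither called. The responses differed by 0.24 ± 0.08 (interval 0.06 to 0.41, unadjusted p = 0.00982), which did not pass adjustment (0.184). GS with T3 read 9.49, 9.40 and 9.39, overlapping its PBS arrays.

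Med1, the Mediator subunit that carries nuclear receptor boxes, differed between WT and GS after T3. Its 2 probe sets with the highest means, 1448708_at and 1421907_at, ran together over the 24 arrays (r = 0.90). By 1421907_at, WT read 7.31, 7.47 and 7.39 with PBS and 7.58, 7.84 and 7.69 with T3, without overlap. GS read 7.28, 7.36 and 7.62 with PBS and 7.13, 7.17 and 7.40 with T3, all 3 T3 arrays under those of WT. GS with T3 was lower than WT with T3, by this probe set (-0.47 ± 0.11, interval -0.69 to -0.25, 1.38-fold, adjusted p = 0.0129) and by 1448708_at (-0.29 ± 0.08, adjusted p = 0.0316). The first was lost without WT T3 replicate 2 (0.0811), GS T3 replicate 1 (0.0612) or GS T3 replicate 2 (0.0528), and the second in all 6 fits without 1 array (adjusted p up to 0.103). KO with T3 differed from WT with T3 by -0.31 ± 0.11 (adjusted p = 0.0924) for 1421907_at. In the T3 groups the Kupffer markers had a median difference of 0.47 between GS and WT, with 0 of 8 called. Of 5 hepatocyte markers 1 (Tat, limma, adjusted p = 0.0465) was lower in GS. The hepatocyte mean level ran from 14.43 to 14.46 in GS and from 14.50 to 14.58 in WT. The part of these markers here was not tested.

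The T3 response of Med1 within WT did not pass, at 0.31 ± 0.11 (adjusted p = 0.0722) for 1421907_at and 0.23 ± 0.08 (0.0667) for 1448708_at, where T3 arrays read 9.33, 9.34 and 9.33 and PBS arrays 8.94, 9.26 and 9.11. The GS response was -0.19 ± 0.11 and -0.09 ± 0.08. The difference between the GS and WT responses, -0.50 ± 0.15 for 1421907_at (interval -0.81 to -0.18, 1.41-fold), was the largest of any member and missed the threshold after adjustment (0.0985). Averaged over genotypes, 1448708_at was 0.12 ± 0.04 higher with T3 (adjusted p = 0.0411), kept in only 8 of 24 fits without 1 array. Among the fits that lost it was the one without Y147F PBS replicate 3 (limma, adjusted p = 0.0608). Averaged over treatments, in the comparison added after seeing the data, 1421907_at was lower in KO and GS than in WT (-0.21 ± 0.07, adjusted p = 0.0404), kept in 6 of 18. The remaining 4 tested Med1 probe sets, at means from 5.35 to 7.33, were called in no comparison.

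Neither p160 coactivator passed in any comparison. Ncoa1, also known as SRC-1, had 2 tested probe sets at means of 8.70 and 7.91, and Ncoa2, also known as SRC-2 or TIF2, had 4 from 5.74 to 10.38. Ncoa2 1435233_at came nearest to the threshold. It read 10.39, 10.31 and 10.24 in WT with PBS and 10.44, 10.39 and 10.50 with T3, and 10.37, 10.38 and 10.47 in KO with PBS against 10.14, 10.39 and 10.27 with T3. WT and KO thus leaned opposite ways, with overlapping or touching arrays in both. The response in KO and GS was -0.25 ± 0.08 relative to that in WT and Y147F (interval -0.41 to -0.09, adjusted p = 0.06), and it passed with quantile normalisation and under several other settings. For Ncoa1 1434515_at the same difference was -0.17 ± 0.08 (interval -0.33 to 0.00, adjusted p = 0.298).

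**Figure D3:**
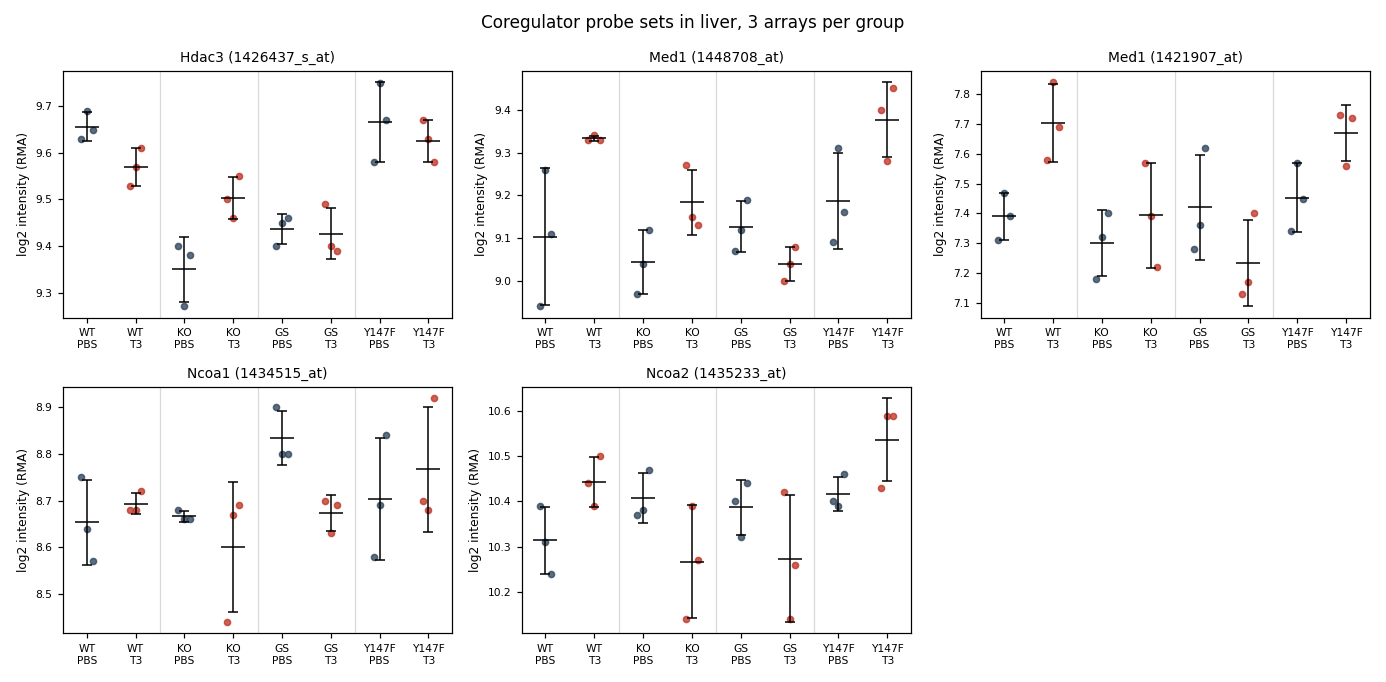
Log2 intensity (vertical axis) of Hdac3, of the 2 brightest Med1 probe sets and of the brightest Ncoa1 and Ncoa2 probe sets in the 8 groups (horizontal axis). Dots are arrays (red T3, blue-grey PBS), bars the mean ± SD of 3 arrays. Hdac3 control arrays of KO and GS lie under those of WT, and Med1 is lowest in GS with T3 by 1421907_at.

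Counted against all 24566 probe sets tested, the machinery was not unusually responsive to T3. In WT 1 of its 20 probe sets was called (Rxrb, higher), beside 9.51% of all probe sets. In Y147F 2 of 20 were called (Rxrb higher, Thra lower), beside 10.5%. In KO limma called 0 of 20, beside 0.138% of all, and 2 of 20 had an unadjusted p under 0.05, against 9.38% of all. In GS it called 0, beside 0.0977%, with 0 of 20 at an unadjusted p under 0.05 against 6.11%. Averaged over genotypes 3 of 20 were called, 2 higher and 1 lower, beside 16.8%. All of these counts lie near the background or below it. The median T3 difference of the 20 was -0.04 in WT and -0.04 in Y147F, beside -0.03 and -0.01 over all probe sets. No member reached a 1.5-fold difference in WT, where 1000 probe sets (4.07%) did, nor in any other of the 18 comparisons.

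**Figure D4:**
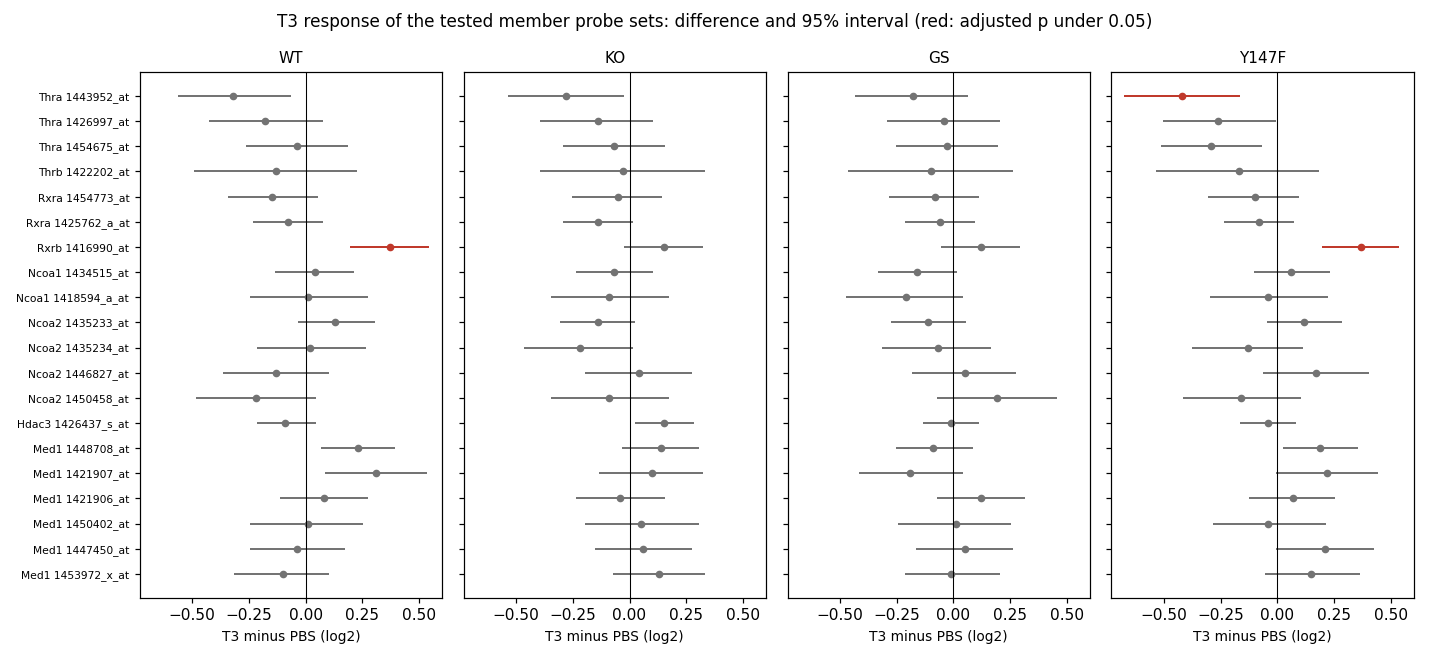
T3 minus PBS (horizontal axis, log2) for the 20 tested member probe sets (vertical axis) in WT, KO, GS and Y147F; points are differences, lines 95% intervals, red an adjusted p under 0.05. Rxrb is called in WT and Y147F and Thra 1443952_at in Y147F, and all intervals lie between -0.67 and 0.54.

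Between genotypes the counts were as small. In control mice 1 of 20 was called between KO and WT (Hdac3, lower), beside 5.67% of all probe sets. Between GS and WT limma called 0, beside 2.15%, with 4 of 20 at an unadjusted p under 0.05 against 12.9% of all. Between Y147F and WT it called 0, beside 0.0122%, with 1 of 20 against 13.6% at that level, and between GS and KO 0, beside 0.0936%, with 1 of 20 against 7.97%. After T3, limma called 0 members between KO and WT, beside 6.02%, with 3 of 20 at an unadjusted p under 0.05 against 19.4%. Between GS and WT 3 of 20 were called (Rxra higher, Med1 lower by both brightest probe sets), beside 4.58%; this is the comparison where the members' count stood most above the background, and it rests on 2 genes. Between Y147F and WT after T3 it called 0 members, as it did for all probe sets (0%), with 0 of 20 at an unadjusted p under 0.05 against 8.07%. For KO and GS together against WT over both treatments, a comparison added after seeing the data, 3 of 20 were called, 1 higher (Rxra) and 2 lower (Hdac3, Med1), beside 11.0%.

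For differences between responses, limma called 0 members in each comparison. The background was 2.57% for KO minus WT, with 2 of 20 members at an unadjusted p under 0.05 against 11.6% of all probe sets. It was 2.45% for GS minus WT, with 5 of 20 against 12.3%. It was 0% for Y147F minus WT, with 0 of 20 against 5.53%, and 0% for GS minus KO, with 0 of 20 against 5.15%. For KO and GS minus WT and Y147F it was 5.94%, with 5 of 20 against 17.3%. Those 5 were Rxrb, Ncoa2 1435233_at, Hdac3 and both brightest Med1 probe sets. The estimates were -0.23 for Rxrb, -0.25 for Ncoa2, -0.31 and -0.19 for Med1 and 0.14 for Hdac3, none of them called. Since controls are shared between these comparisons, they are not independent of each other.

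Larger differences were found among other receptors and coregulators. A list of 46 further genes held 43 that could be tested, with 83 probe sets. In WT 12 of the 83 were called with T3, 6 higher and 6 lower (14.5%, beside 9.51% of all probe sets tested). In Y147F 8 were higher and 8 lower (19.3%, beside 10.5%). In KO and GS limma called 0 of 83 each, beside 0.138% and 0.0977% of all, so these 0 counts lie near the background. The RXR partners stood behind much of the WT and Y147F counts. Of their 15 probe sets T3 raised 1 and lowered 6 in WT (46.7%), with the same numbers in Y147F. Among 24 corepressor probe sets WT had 0 calls and Y147F had 2 falls (8.33%), Nrip1 (-0.43 ± 0.09) and Hdac1 (-0.21 ± 0.07). Of 27 coactivator probe sets 5 rose in WT (18.5%) and 6 in Y147F (22.2%), all of the 2 PGC-1 genes Ppargc1a and Ppargc1b. Of 17 Mediator probe sets 0 were called in WT and 1 (5.88%), Med24, rose in Y147F (0.32 ± 0.09, adjusted p = 0.0216).

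Ppard, the fatty acid receptor PPARδ, rose most among the RXR partners. It read 6.56, 6.49 and 6.33 in WT with PBS and 7.61, 7.73 and 7.70 with T3, a rise of 1.22 ± 0.13 (adjusted p = 1.65e-06), and it rose by 1.27 ± 0.13 in Y147F. In KO it read 6.65, 6.24 and 6.61 against 6.65, 6.77 and 6.71, with touching arrays and no call. Here the difference between responses passed the test, at -1.01 ± 0.19 for KO minus WT (adjusted p = 0.00378) and -1.09 ± 0.19 for GS minus WT (0.00174). The coactivator PGC-1β, encoded by Ppargc1b, gained 1.07 ± 0.13 in WT. In Y147F it rose by 0.99 ± 0.13. Relative to WT the response was smaller in KO (-0.81 ± 0.19, adjusted p = 0.0215) and in GS (-0.82 ± 0.19, 0.0205).

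The falling partners were the xenobiotic receptors, the bile acid receptor and PPARγ. Pparg fell by 0.91 on the log2 scale in WT (adjusted p = 1e-04) and by 0.78 in Y147F, from PBS arrays of 8.91, 8.81 and 9.25 to T3 arrays of 8.23, 7.90 and 8.10 in WT. Its controls were already lower in GS than in WT (-0.84 ± 0.14, adjusted p = 0.00134) and in KO than in WT (-0.54 ± 0.14, 0.0243), and its T3 difference was 0.02 ± 0.14 in KO and 0.13 ± 0.14 in GS. The xenobiotic receptor gene Nr1i3 likewise fell with T3, by 0.82 in WT and 0.83 in Y147F. Its controls were lower than WT in KO (-0.69 ± 0.15, limma, adjusted p = 0.00896) and in GS (-0.60 ± 0.15, 0.0406). The Nr1i3 T3 difference was 0.07 ± 0.15 in KO and 0.08 ± 0.15 in GS. The pregnane X receptor Nr1i2 (1451807_at) had a response higher by 1.16 ± 0.19 in KO than in WT (adjusted p = 0.000993), and the farnesoid X receptor Nr1h4 one higher by 0.59 ± 0.13 (0.0156), since both fell in WT and were not called in KO. Rxrg, the third RXR gene, fell by 0.57 in WT (adjusted p = 0.00789) and by 0.59 in Y147F (0.00607), opposite to Rxrb.

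By genotype, Ppargc1a, the coactivator PGC-1α, was lower in control KO than in control WT. Its brightest probe set 1460336_at read 8.62, 9.14 and 8.51 in WT with PBS and 8.17, 8.01 and 8.01 in KO with PBS, without overlap. By 1437751_at control KO was lower than control WT (-0.75 ± 0.11, adjusted p = 0.000376). In the comparison added after seeing the data, KO and GS were lower than WT over both treatments (-0.71 ± 0.07, adjusted p = 2.58e-06). Control GS was not called against control WT by any Ppargc1a probe set, with -0.30 ± 0.11 (adjusted p = 0.199) by 1437751_at. With PBS 0 of the 83 further probe sets were higher and 7 lower in KO than in WT (8.43%, beside 5.67% of all probe sets tested), and 0 higher and 2 lower in GS (2.41%, beside 2.15%). With T3, 4 were higher and 8 lower in KO than in WT (14.5%, beside 6.02%), and 4 higher and 6 lower in GS (12%, beside 4.58%). For the response in KO and GS minus that in WT and Y147F, 9 of the 15 RXR partner probe sets were called, 8 higher and 1 lower, beside the background of 5.94% and the 0 of 20 among the members.

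**Figure D5:**
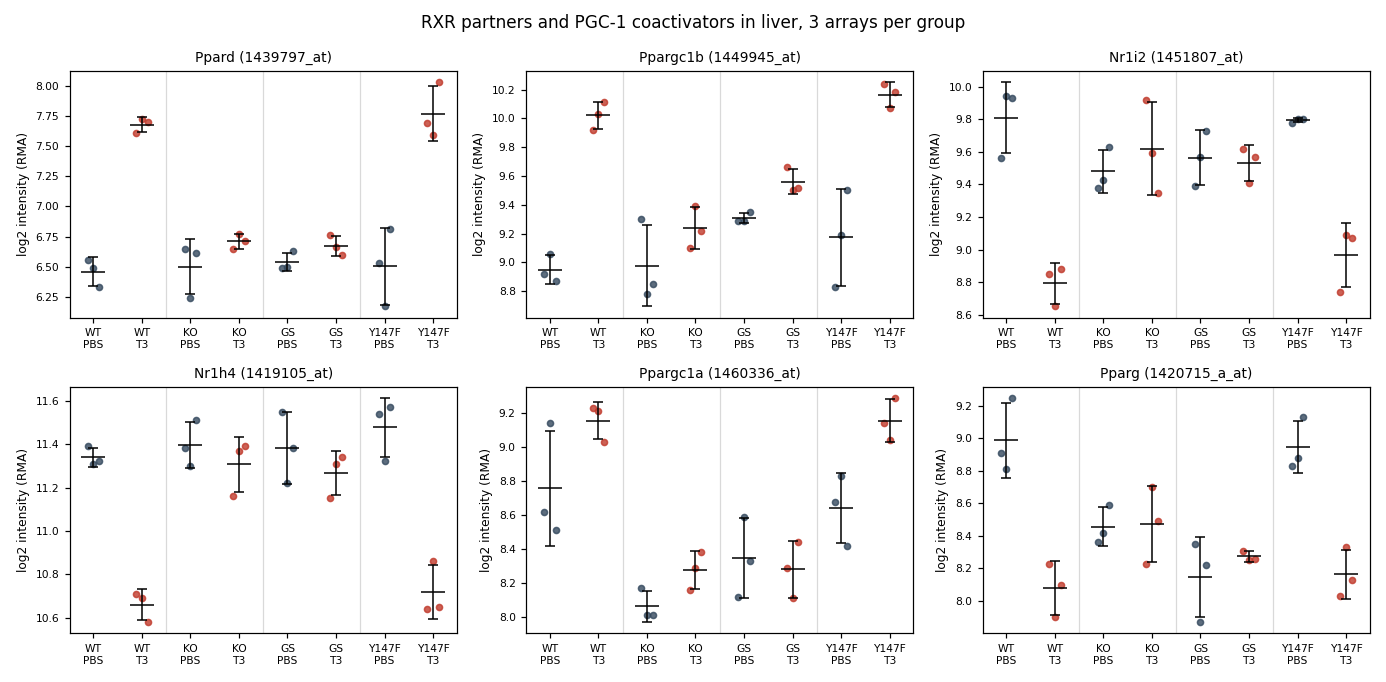
Log2 intensity (vertical axis) of 6 further receptors and coactivators in the 8 groups (horizontal axis). Dots are arrays (red T3, blue-grey PBS), bars the mean ± SD of 3 arrays. Ppard and Ppargc1b rise and Nr1i2, Nr1h4 and Pparg fall with T3 in WT and Y147F, while in KO and GS none of these 5 passed the test; over both treatments Ppargc1a is lower in KO and GS than in WT, although control GS alone was not called.

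Beside the members stand the T3 targets they serve. T3 raised the dehydrogenase Gpd2 by 2.38 ± 0.14 in WT and by 1.87 ± 0.14 in Y147F, with 0.48 ± 0.14 in KO (adjusted p = 0.219) and 0.48 ± 0.14 in GS (0.48). For Bcl3 the rise was 2.82 ± 0.17 (WT) and 3.24 ± 0.17 (Y147F), with 0.14 ± 0.17 in KO and 0.07 ± 0.17 in GS. The lipogenic genes Thrsp and Me1 rose by 1.36 ± 0.25 and 0.89 ± 0.22 in WT and by 1.10 ± 0.25 and 0.94 ± 0.22 in Y147F. Their differences were 0.20 ± 0.25 and 0.43 ± 0.22 in KO and -0.15 ± 0.25 and 0.24 ± 0.22 in GS, none called. Against the WT response, that of Me1 was not called as different in KO or GS. That of Thrsp was called only in GS (-1.51 ± 0.35). Klf9, a transcription factor gene, was raised by 0.38 ± 0.12 in WT (adjusted p = 0.0412) and by 0.39 ± 0.12 in Y147F, with 0.32 ± 0.12 in KO and 0.34 ± 0.12 in GS, not called there. Hr, a corepressor that T3 induces in brain, was not called in any genotype, at 6.32 to 6.75 over the arrays. Control levels already differed: with PBS, Gpd2 was above WT by 1.45 ± 0.14 in KO and 1.41 ± 0.14 in GS. For Bcl3 this was 1.03 ± 0.17 and 1.11 ± 0.17, and for Dio1 1.24 ± 0.28 and 1.09 ± 0.28, all called. Controls of Thrsp, Me1, Klf9 and Hr were not called. With T3, Gpd2 was -0.46 ± 0.14 relative to WT in KO (limma, adjusted p = 0.0539) and -0.50 ± 0.14 in GS (0.0429). Bcl3 and Dio1 with T3 were lower than WT in KO and GS, all called.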

How the data were processed

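Liver RNA, 200 ng per array, was measured on an Affymetrix mouse array. Per the submitters' processing notes, the authors summarised arrays with RMA; its version and whether both submissions were summarised jointly are not given in the sources used here. The deposited values are log2 intensities in 18 columns. In the 6 Y147F columns the deposited numbers, of no usable unit as they stand, had lost the decimal mark: it was put back to give values from 3 to 16. Cells that could also be spreadsheet day numbers were set missing (1319, 0.487%, none in a member), and limma fits such a probe set on its remaining arrays (362 of those tested, none a member). Damaging and restoring the intact columns the same way restored 807959 values with 0 wrong, which checks the steps only.

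Of 45101 probe sets, 34958 had 1 symbol in the probe table and entered the analysis, while 932 had several and 9211 had no symbol. Tested were 24566 probe sets (14157 genes) at or above the 40th percentile of an array in at least 3 arrays. In R 4.3.3 with limma 3.58.1, 1 model of 8 group means was fitted to all 24 arrays (16 residual and 4.59 prior degrees of freedom), two-sided, with Benjamini-Hochberg adjustment over all probe sets of a comparison and calls at an adjusted p under 0.05. The steps were tested on simulated data. Sequences and positions are RefSeq, GRCm38.p6.

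Named were all member probe sets, up to 4 called probe sets of the further list per comparison by smallest p, 7 T3 read-outs and, for Thra, Thrb and Rxra, the 3 most correlated probe sets. Rxrg, Hdac1, Med24, Nrip1, Nr1d1, the cell markers, and other list members outside that rule were named after their values were seen. The members, lists and comparisons were chosen with earlier results of these data known. Alternatives were quantile normalisation, other filters, 1 probe set per gene, all probe sets, a variance trend, array weights, fits of fewer arrays, a covariate for whether the title number exceeds 100000, a call only at 1.5-fold or more, and fits without any 1 array; 2 of the 18 comparisons were added after seeing the data.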

Additional observations from a re-analysis of the deposited data

Results flagged for a closer look

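Hdac3 was singled out because its T3 difference ran one way in all arrays of WT and the other way in all arrays of KO. With T3 the WT arrays lay under their controls (-0.09 ± 0.06) and the KO arrays above theirs (0.15 ± 0.06). The difference between the responses was 0.24 ± 0.08, with an unadjusted p of 0.00982 and an adjusted p of 0.184 in limma, so it did not pass. The arrays that singled Hdac3 out also gave these p-values. The share of all tested probe sets with such a pattern is not given here. No group of 3 arrays can be checked for a single outlying array by the gap between its values.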

How the results depend on the processing

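Precision rests on 3 arrays per group, and no direction of a called member reversed under any alternative. Counts of members called moved as follows. In WT with T3 the count of 1 became 2 with quantile normalisation and with the 60th percentile filter, through a Med1 probe set, 0 at a 1.5-fold threshold, and 1 to 2 with 1 array left out. In Y147F the count of 2 became 1 with the title number covariate, 0 with only the arrays compared and 0 at 1.5-fold, and 1 to 2 with 1 array left out. The averaged T3 count of 3 became 0 at 1.5-fold and 2 with no filter, array weights or the covariate, and ran from 2 to 5 with 1 array left out, reaching 5 without KO T3 replicate 2. Between KO and WT with PBS the count of 1 became 0 with only the arrays compared and at 1.5-fold. Between GS and WT with PBS the count of 0 became 1 with quantile normalisation, the 60th percentile filter, the variance trend, 1 probe set per gene, or only WT, KO and GS arrays, and 2 with array weights. After T3 the count of 0 between KO and WT became 2 with array weights and 1 with only WT, KO and GS arrays. Between GS and WT after T3 the count of 3 became 1 with only the arrays compared, 2 with the covariate or 1 probe set per gene and 0 at 1.5-fold, and ran from 0 to 2 with 1 array left out, with 0 without WT T3 replicate 2, GS T3 replicate 1 or GS T3 replicate 2. For the response of KO and GS minus WT and Y147F the count of 0 became 1 (Ncoa2 1435233_at) with quantile normalisation, the 60th percentile filter, the variance trend, array weights, 1 probe set per gene or the covariate, and 0 to 1 with 1 array left out. For KO and GS against WT the count of 3 became 0 at 1.5-fold, 4 with array weights and 2 with no filter, the covariate, 1 probe set per gene, only the arrays compared or only WT, KO and GS arrays, and ran from 2 to 4 with 1 array left out. The counts of 0 at 1.5-fold follow from the setting, since no member reached that fold in any comparison. With 1 probe set per gene only the brightest probe set of a gene is kept, so Med1 1421907_at is left out. The cause of the other moves was not tested. Title numbers over 100000 fell on 13 arrays (1 of WT, 6 of KO, 2 of GS and 4 of Y147F). In Y147F they fell on all PBS arrays but, of the T3 arrays, only on replicate 3. Title number and T3 are thus partly confounded in that genotype. No paired analysis was possible because the number in every title differs and replicate numbers follow accession order only.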
